A study of Mus musculus with 95 samples.

Results

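Granzymes A, B, D, F and G, perforin (Prf1) and the chemokine Ccl5 were followed in mouse lung across exposure to Pneumocystis murina, a fungus of the mouse airspace. The 7 genes were taken as every probe set that the array's annotation pairs with only one of these symbols, which gave 8 probe sets (2 for Gzmg) among 12487, and 7 of the 8252 genes tested. They were chosen by measured values: earlier results of these arrays showed Ccl5 and granzymes D, F and G higher after 14 days of exposure, and their values at day 14 are described here without p-values, and how many of them passed a threshold there is no evidence about them.

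Whole lung homogenates of 95 mice, labelled female and 8 weeks old, were hybridised to 1 single-colour array each. C57BL/6 mice (75 arrays) and CD40L-KO mice (20 arrays), which lack the T cell surface protein CD40 ligand, were housed with a heavily infected seeder mouse (60 exposed arrays) or without one (35 unexposed arrays). In C57BL/6 mice the exposed and unexposed groups held 8 and 4 mice at day 7, 8 and 6 at day 14, 6 and 5 at day 21, 3 and 2 at day 32, 10 and 5 at day 34 and 10 and 5 at day 41, and 3 exposed mice were taken at day 75. In CD40L-KO mice there were 3 exposed and 3 unexposed at day 32, 4 exposed at day 35 with 5 unexposed labelled day 14, and 2 and 3 exposed at days 39 and 75. Day 32 was experiment 1, days 34 and 41 experiment 2 and days 7, 14 and 21 experiment 3. The CD40L-KO comparison of day 35 was experiment 4. In experiments 1 to 3 exposed and unexposed mice lived in separate cages, and a cage effect cannot be told apart from an exposure effect. The labels describe the mice and homogenates as separate samples and no group as pooled.

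Granzymes are serine proteases stored in the granules of cytotoxic T cells and natural killer (NK) cells; perforin forms the pores through which they enter a target cell. Granzymes A and B are the best known of them, while granzymes C to G are rodent relatives found in strongly activated lymphocytes. Ccl5 (RANTES) is a chemokine secreted by T cells, NK cells and other cells, and it draws leukocytes through chemokine receptors such as Ccr1.

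The genes for granzymes D, F and G lie in 1 cluster on chromosome 14, where the RefSeq annotation (GRCm38.p6) lists Mcpt8, Ctsg, Gzme, Gzmd, Gzmg, Gzmn, Gzmf, Gzmc and Gzmb in that order. The 250 bases upstream of the start of Gzmd (chr14:56132594-56132843), Gzmg (chr14:56159580-56159829) and Gzmf (chr14:56211408-56211657), all on the minus strand, are shown from RefSeq because these 3 genes had the largest values at day 14 relative to unexposed mice. That of Gzmb (chr14:56262335-56262584, minus strand), a cluster gene whose values spread less, is given beside them. Capitals mark a run of 36 bases that Gzmd, Gzmg and Gzmf share.
Gzmd: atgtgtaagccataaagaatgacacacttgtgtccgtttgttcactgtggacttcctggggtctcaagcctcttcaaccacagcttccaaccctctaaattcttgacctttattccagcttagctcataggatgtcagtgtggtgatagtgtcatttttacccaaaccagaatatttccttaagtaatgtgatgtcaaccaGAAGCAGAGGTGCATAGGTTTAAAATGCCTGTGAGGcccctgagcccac
Gzmg: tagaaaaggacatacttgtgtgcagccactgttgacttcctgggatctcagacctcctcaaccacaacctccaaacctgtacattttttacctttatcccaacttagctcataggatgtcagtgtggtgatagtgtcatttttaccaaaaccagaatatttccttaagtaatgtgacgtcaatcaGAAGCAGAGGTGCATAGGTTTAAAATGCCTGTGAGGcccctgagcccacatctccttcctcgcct
Gzmf: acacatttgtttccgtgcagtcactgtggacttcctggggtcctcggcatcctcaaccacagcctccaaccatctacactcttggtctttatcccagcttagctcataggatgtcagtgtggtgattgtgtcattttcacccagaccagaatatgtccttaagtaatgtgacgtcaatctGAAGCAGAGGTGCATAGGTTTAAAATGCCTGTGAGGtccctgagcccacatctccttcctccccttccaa
Gzmb: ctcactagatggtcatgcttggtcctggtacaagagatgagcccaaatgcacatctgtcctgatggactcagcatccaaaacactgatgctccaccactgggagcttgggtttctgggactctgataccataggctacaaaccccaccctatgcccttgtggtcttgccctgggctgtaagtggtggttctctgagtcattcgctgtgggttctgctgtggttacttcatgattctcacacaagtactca

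Of 32851 promoters in the RefSeq table, 4 held the 36-base run, those of Gzmd, Gzme, Gzmf and Gzmg. Aligned in pairs, the upstream regions of Gzmc, Gzmd, Gzme, Gzmf and Gzmg were 84.4% to 95.6% identical over 225 to 249 bases, with Gzmd and Gzme closest. Between Gzmb and any of those 5 at most 6 bases aligned under the same settings, which left gaps at the ends free. Dissimilar sequences can then slide apart until few bases align, so that number does not measure how alike they are. Both strands were searched for 4 short motifs. TGACGTCA, the cyclic AMP response element, was present in Gzmf and Gzmg and in 1.55% of all promoters. TGTGGT, a RUNX motif, was present in all 6 members that have a promoter in the table (all but Ccl5) and in 14.0% of all promoters. TGANTCA, the AP-1 motif, was found in Gzmb and in 6.75% of promoters, and TTCNNNGAA, an interferon-gamma activated sequence, in none of the 6 members and in 7.02% of promoters. Near-identical family members can share array probes; the part of cross-hybridisation between granzymes C to G was not tested.

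Values below are the authors' linear intensities. Differences are of mean log2(intensity + 8), exposed minus unexposed, with their standard error (SE), and they understate changes of dim genes; on this scale an intensity of 0 is 3. P-values are from limma, adjusted by Benjamini-Hochberg over all 8252 genes, with a threshold of 0.05, and the number of mice limits the precision. In whole lung, fewer cells of a type and less RNA per cell cannot be told apart. Transcripts of squamous epithelium stood apart on 16 arrays (score of 6.84 or more against 5.11 or less), among them 4 of 5 unexposed mice of day 34 and 1 of 6 unexposed mice of day 14. Every mouse is labelled female, yet Eif2s3y, a Y-linked gene, exceeded Xist on 17 arrays, which are the whole of 5 groups. Those groups include both groups of the CD40L-KO day 35 comparison and the mice of days 39 and 75. Cd40lg, the deleted gene, read 3.05 to 3.75 on the log2 scale on all 95 arrays of both strains, so it does not check the strain labels.

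Granzymes D, F and G were near the bottom of the range in nearly every lung. Among the exposed C57BL/6 mice of day 14, mice 3, 4, 7 and 8 exceeded an intensity of 50 in all 3 genes, and the rest did not in any. Gzmd read 2.52, 18.3, 257, 361, 4.67, 33.5, 118 and 191 in exposed mice 1 to 8 and 0.67 to 3.53 in the 6 unexposed mice. Mice 1 and 5 lay at or close to the unexposed level, and the groups overlapped only through mouse 1. Gzmf, 1.13, 9.28, 81.8, 128, 1.2, 17.5, 60 and 59.9 in the same mice against 0.91 to 4.37 in unexposed ones, again left mice 1 and 5 at the unexposed level. Gzmg, measured by its brighter probe set, read 8.68, 37.4, 215, 339, 11.9, 47.7, 145 and 181 against 4.73 to 15.8, with the same pair of mice inside the unexposed range. The differences were 2.73 (SE 0.52) for Gzmd, 1.77 (SE 0.39) for Gzmf and 2.18 (SE 0.44) for Gzmg.

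**Figure D1:**
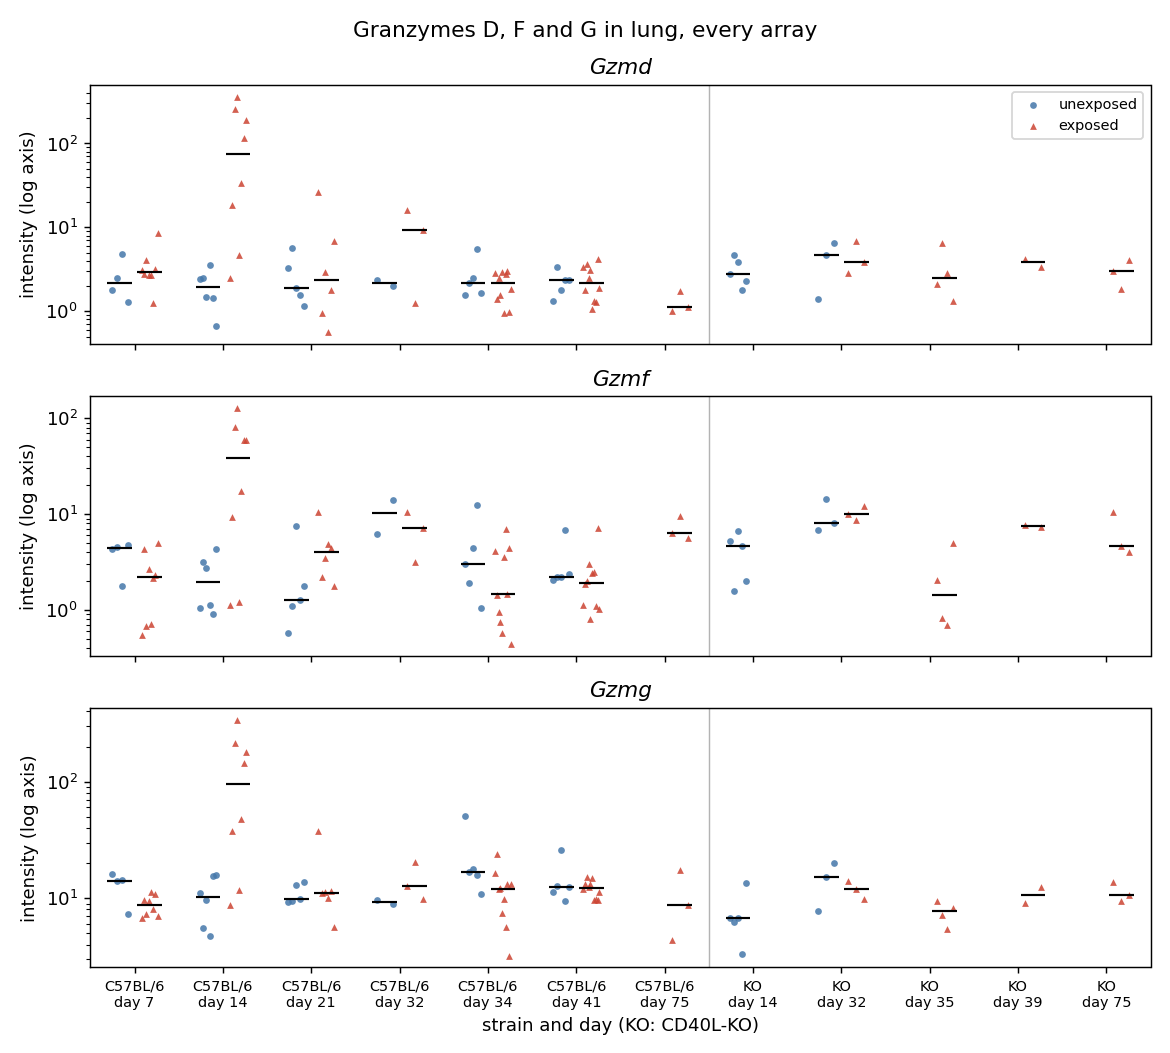
Intensity (log axis) of Gzmd, Gzmf and Gzmg on every array by strain and day; circles are unexposed mice, triangles exposed mice and bars group medians. Outside the exposed mice of day 14, Gzmd reached at most 26.6, Gzmf at most 14.4 and Gzmg at most 51.0.

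The order of the 8 exposed mice by Gzmd (4, 3, 8, 7, 6, 2, 5, 1) was the same by Gzmg and by 1 of the 2 probe sets of Gzmc, a neighbour in the cluster, and Gzmf exchanged only mice 7 and 8, which read 60 and 59.9. That Gzmc probe set read 41.1 in mouse 4, 26.8 in mouse 3 and 1.37 in mouse 1, against 0.66 to 1.40 in unexposed mice. A probe set that the annotation pairs with both Gzme and Gzmd reached 206 in mouse 4 and 147 in mouse 3, against 1.54 to 9.74 in unexposed mice. Whether these probe sets read each gene apart from its relatives was not tested, so their shared order need not come from separate genes. The second probe sets did not follow. That of Gzmg (difference 0.02, SE 0.10) stayed between 0.20 and 11.7 over all 95 arrays, and that of Gzmc, the one that represents the gene in the fit, differed by 0.04 (SE 0.13). Granzymes K and M, encoded outside the cluster, differed by -0.10 (SE 0.06) and 0.09 (SE 0.18). Both were dim throughout, at most 15.7 and 23.9 over all 95 arrays, so a change could be missed.

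Granzymes A and B, perforin and Ccl5 spread far less among the same mice and ordered them differently. Mouse 5, at the unexposed level for granzymes D, F and G, had the third highest Gzma (128) and the fourth highest Gzmb (68.0), Prf1 (26.9) and Ccl5 (299). Mouse 7 showed the reverse, with Gzmd at 118 beside Gzmb at 42.5, the seventh of the 8 mice. Mice 3, 4 and 8 were among the highest for all of these genes apart from the fourth place of mouse 3 in Gzma.

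**Figure D2:**
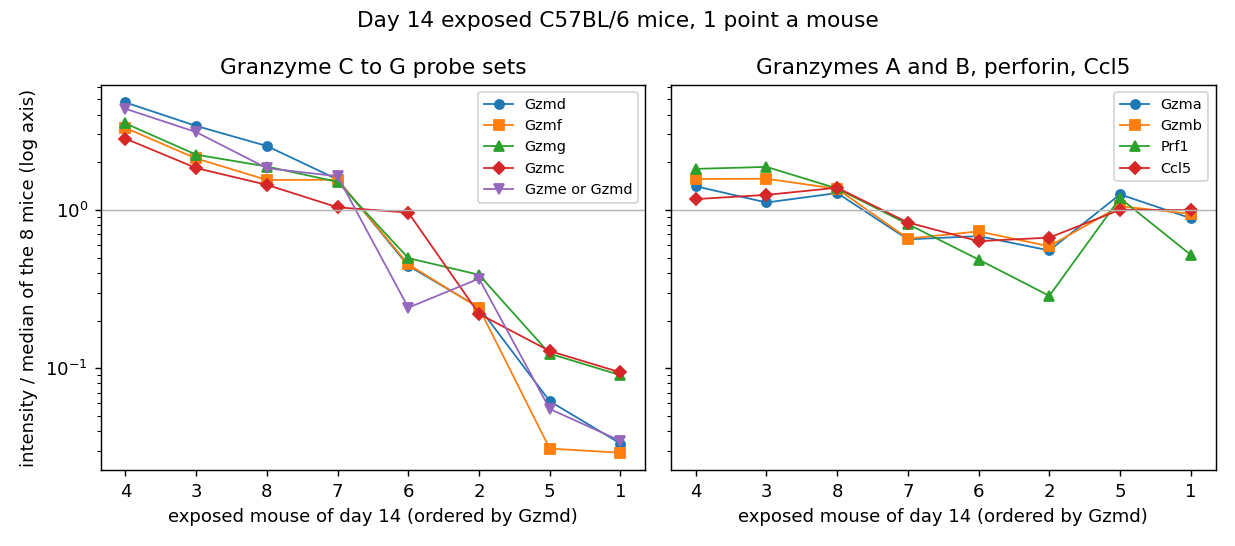
Intensity of each exposed C57BL/6 mouse of day 14 divided by the median of the 8 mice (log axis), in the order of Gzmd; left, probe sets of granzymes C to G, and right, granzymes A and B, perforin and Ccl5. The left panel falls steeply to mice 5 and 1, while in the right panel mouse 5 lies at or above the median.

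Ccl5 read 298, 200, 372, 349, 299, 189, 249 and 412 in the exposed mice of day 14 and 99.0, 111, 113, 131, 210 and 215 in the unexposed ones. All 8 exposed mice lay above the unexposed mean, with mice 2 and 6 inside the unexposed range, and the difference was 0.99 (SE 0.20). Gzmb, the granzyme that cleaves caspases, read 38.0 to 101 (median 64.4) against 19.98 to 53.3 (median 36.3), a difference of 0.80 (SE 0.20). Gzma, the tryptase of the family, read 56.5 to 144 (median 102) against 38.7 to 93.7 (median 51.9), a difference of 0.67 (SE 0.23). Perforin read 6.48 to 42.3 against 10.5 to 23.5, so that exposed mice reached both below and above all unexposed ones, and differed by 0.23 (SE 0.26). In this comparison 4 of the 7 members passed the threshold (Gzmd, Gzmf, Gzmg and Ccl5) beside 0.267% of all genes; since this contrast chose the members, nothing is read from that count. Without unexposed mouse 4, which carried squamous transcripts, only Gzmd passed, and 1 to 5 members passed when 1 array was left out at a time.

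At day 14, where 0.267% of all genes passed the threshold by limma, the gene lists below differed in how many of their genes passed. Of 17 measured genes of cytotoxic granules and their release, 0 of 17 passed by limma, with a median difference of 0.05 beside 0 for all genes. That count depends on the probe set: Gzmc enters it by the one that differed by 0.04. The other Gzmc probe set differed by 1.15 (SE 0.25, adjusted p = 0.0364 by limma with each probe set alone). Gzme, whose probe set is also paired with Gzmd, is not among the 17. Ctsw, a cathepsin of NK and cytotoxic T cells, differed by 0.53 (SE 0.16, adjusted p = 0.224). Of 16 NK cell markers 2 rose, the signalling adaptor Tyrobp by 0.64 (SE 0.15, adjusted p = 0.0448) and the receptor Klra3 by 0.61 (SE 0.14, adjusted p = 0.0486), with a list median of 0.20. The mean level of the NK list spanned 4.96 to 5.48 (median 5.24) in the exposed group and 4.91 to 5.15 (median 4.95) in the unexposed one. Of that list, median Klrd1 was 67.1 against 42.5, Klrk1 16.4 against 14.5 and Il2rb 25.5 against 24.9, all with overlapping ranges. Of 18 T cell markers 0 passed, and their mean level was 4.53 to 5.35 (median 5.11) against 4.69 to 5.15 (median 4.78). Among them, median Cd3e was 51.4 against 21.9, with overlapping ranges. Cd8a, the co-receptor of cytotoxic T cells, was dim in both groups (2.3 to 17.2 against 4.6 to 16.4), and Ifng, the cytokine of activated T and NK cells, read at most 4.6. Of 11 type I interferon response genes 3 rose: Rsad2 by 1.58, Irf7, the transcription factor, by 0.80, and the ubiquitin-like Isg15 by 0.67. The part of these cell types in the granzyme and Ccl5 values was not tested. The ratio of 3' to 5' Gapdh signal, a measure of RNA quality, spanned -0.04 to 0.86 (log2) among exposed mice and 0.01 to 0.33 among unexposed ones, and its highest value was in mouse 6, whose Gzmd was the fifth of the 8.

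At day 7 no member passed, and 0 of 8252 genes did by limma (0%), with 545 genes and none of the members at an unadjusted p under 0.05. Gzmd read 1.27 to 8.58 after exposure and 1.30 to 4.79 without it, and Ccl5 83.9 to 210 against 128 to 173. Differences of the 7 members ran from -0.49 for Prf1 (SE 0.29, adjusted p = 0.786) to 0.11 for Gzmd (SE 0.59, adjusted p = 0.988). Gzmg differed by -0.30 (SE 0.49, adjusted p = 0.95), and all 8 exposed mice lay below the unexposed mean. Its exact permutation test, two-sided and unadjusted, gave p = 0.0485. The limma fit shares 1 spread over the experiment's groups, and the SD of Gzmg was 0.15 in these exposed mice and 1.65 in those of day 14.

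At day 21 Ccl5 of every exposed mouse lay above all unexposed values, while granzymes D, F and G were near the floor in all exposed mice but 1. Ccl5 read 328, 248, 220, 361, 305 and 271 in exposed mice and 89.7, 168, 104, 111 and 182 in unexposed mice. The groups did not overlap, as held for 0.485% of all genes in that direction. The difference of 1.12 (SE 0.23) missed the threshold over all genes (adjusted p = 0.0584, 0.0331 to 0.249 over the other settings). The exact permutation test of this gene alone, two-sided and unadjusted, gave p = 0.00433, the only value that groups of this size without overlap can give. The same test was run on every member and pair of groups compared, day 14 aside. Its p was also under 0.05 for Ccl5 in CD40L-KO mice of day 35, given below. So it was for Gzmb at day 34 (0.03), Gzmg at day 7 (0.0485) and Prf1 at day 41 (0.0493), with Gzmg and Prf1 lower after exposure. Among so many unadjusted permutation tests, some p under 0.05 are expected without any change. Ccl5 at day 21 passed the threshold without exposed mouse 3 (adjusted p = 0.0408) or unexposed mouse 5 (adjusted p = 0.0399). The adjusted p was 0.0689 to 0.262 with any other 1 array left out. Squamous transcripts marked exposed mouse 3 and unexposed mice 1 and 4, and without these 3 arrays and the others marked in the same experiment the difference was 0.99 (adjusted p = 0.228). By limma 0 of 8252 genes passed at day 21 (0%), with 959 at an unadjusted p under 0.05, 3 of them members (Gzma, Prf1 and Ccl5).

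Gzma at day 21 read 81.8, 61.5, 74.2, 110, 87.2 and 87.6 against 30.5, 31.9, 49.7, 56.7 and 112, a difference of 0.63 (SE 0.26, adjusted p = 0.372), and unexposed mouse 5 exceeded every exposed mouse. Prf1 differed by 0.59 (SE 0.29, adjusted p = 0.427) and Gzmb by 0.39 (SE 0.22, adjusted p = 0.489). Exposed mouse 1 alone had Gzmd (26.6), Gzmf (10.4) and Gzmg (38.1) above the other 5 exposed mice, whose Gzmd was 0.56 to 6.87. Differences were 0.26 (SE 0.59), 0.27 (SE 0.44) and 0.13 (SE 0.49), with adjusted p of 0.846 to 0.942 by limma.

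**Figure D3:**
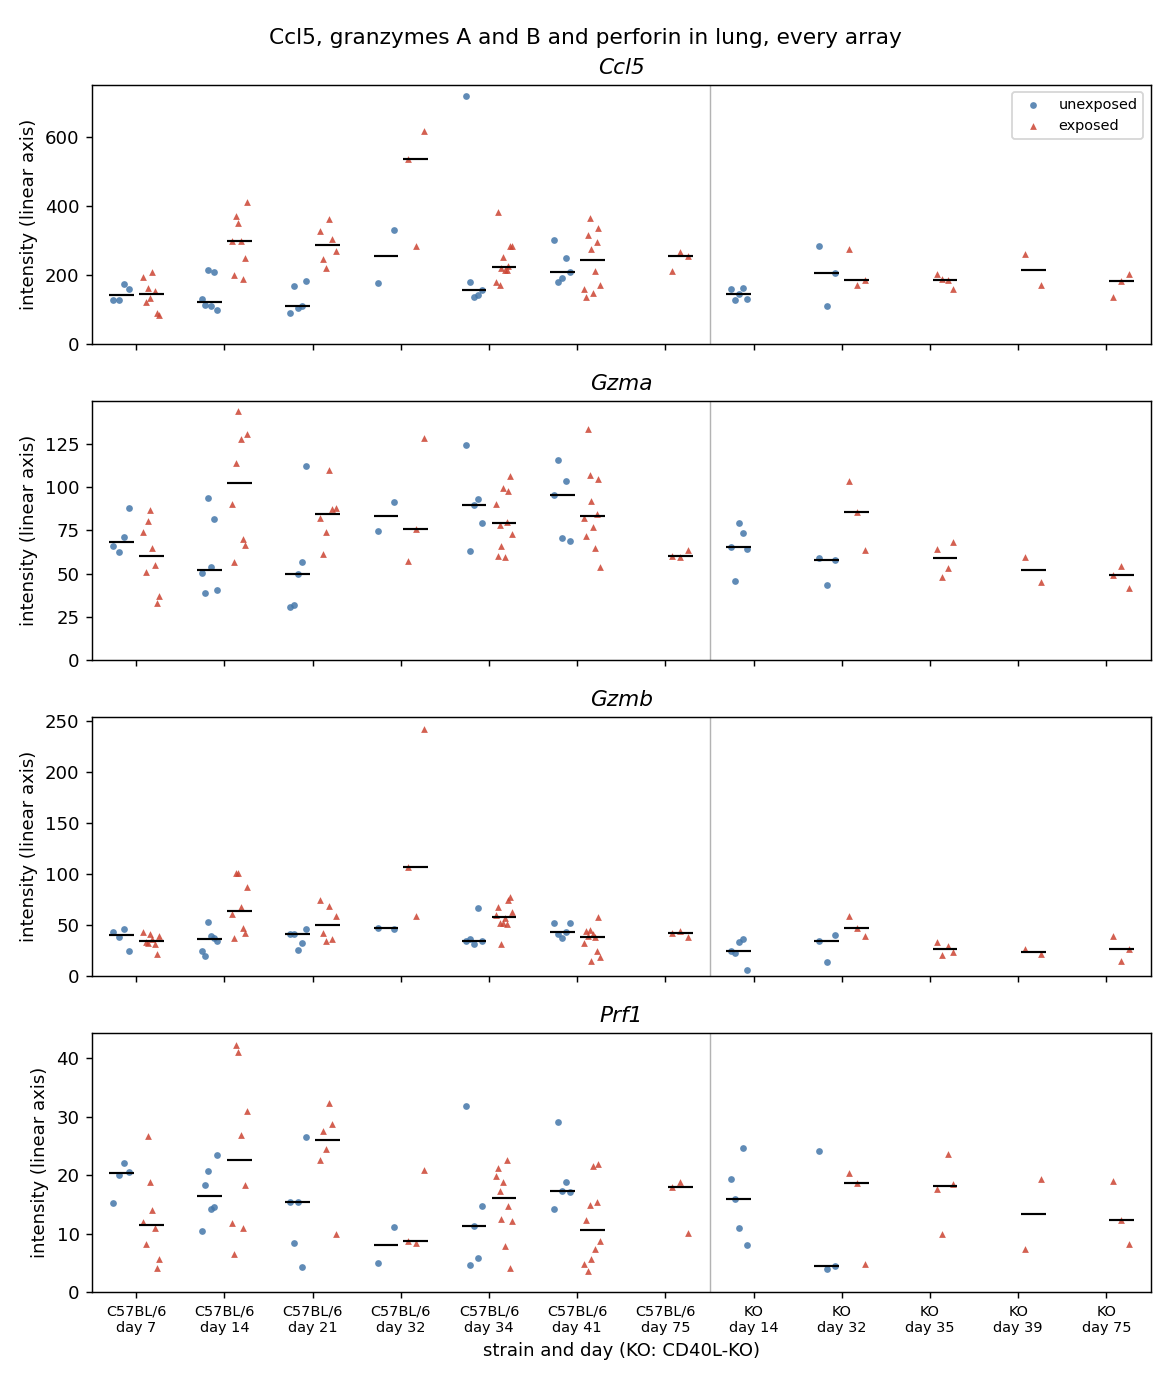
Intensity (linear axis) of Ccl5, Gzma, Gzmb and Prf1 on every array by strain and day; circles are unexposed mice, triangles exposed mice and bars group medians. The exposed mice of day 21 lie above all unexposed mice of that day in Ccl5, and the highest Ccl5 of all arrays, 719, is an unexposed mouse of day 34.

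At day 32 the highest Gzmb and the highest group mean of Ccl5 of the series were seen in exposed C57BL/6 mice, with few mice. Gzmb read 107, 59.2 and 242 in exposed and 47.6 and 46.5 in unexposed mice. The groups did not overlap for Gzmb and for Gzmg (12.6, 20.5 and 9.82 against 9.65 and 8.96), as held for 17% of all genes in that direction. The difference was 1.18 (SE 0.48, adjusted p = 0.241), and 0.68 without exposed mouse 3 and 1.63 without exposed mouse 2. Ccl5 read 536, 284 and 618 against 177 and 332, a difference of 0.88 (SE 0.44, adjusted p = 0.34), and 0.45 without unexposed mouse 1 (adjusted p = 0.816) and 1.32 without unexposed mouse 2 (adjusted p = 0.304). No member passed beside 1.65% of all genes. In a fit of all 19 groups together Gzmb passed (adjusted p = 0.031), while Gzmd, at 16.2, 1.26 and 9.25 against 2.35 and 2.00, differed by 0.62 (adjusted p = 0.386), by 0.31 without exposed mouse 1 (adjusted p = 0.732) and by 1.01 without exposed mouse 2 (adjusted p = 0.046). With 3 mice against 2, an exact permutation test of 1 gene cannot go below the p of 0.2 seen for Gzmb.

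On the same day, of 18 T cell markers 1 passed, Cd3d by 1.40 (SE 0.26, adjusted p = 0.0291), with a list median of 1.21. Of 11 measured receptors of Ccl5 and related chemokines 3 rose: Cxcl9 by 4.50, Cxcl10 by 3.23 and their receptor Cxcr3 by 1.89. Of the 17 granule genes and of the 16 NK cell markers 0 passed, with medians of 0.17 and 0.25. Of the granule list, Ctsw read 7.9 to 106.6 (median 78.3) in exposed mice against 5.7 to 7.0, and Srgn 84.4 to 157.3 against 88.9 to 103.6. Of 11 type I interferon response genes 0 passed as well, yet their median was 1.31 beside -0.01 for all genes. With 3 mice against 2, a gene that did not pass may still have changed.

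At day 34, when 8.22% of all genes passed, no member did. Gzmb read 31.3 to 78.0 (median 58.2) in exposed and 31.5 to 66.5 (median 34.8) in unexposed mice, a difference of 0.46 (SE 0.20, adjusted p = 0.14), with 9 of 10 exposed mice above the unexposed mean. Ccl5 read 172 to 384 (median 223) against 719, 179, 136, 142 and 157. Unexposed mouse 1 exceeded every other lung of the series, and the difference of 0.17 (SE 0.28, adjusted p = 0.756) was 0.61 without it (adjusted p = 0.0973). The same mouse had the highest Gzmg outside day 14 (51.0), the highest Gzma (124) and Prf1 (31.75) of its group, and the highest mean level of T cell (5.70) and B cell (6.86) markers among the 5; it and 3 of the others carried squamous transcripts. Gzmg differed by -0.56 (SE 0.21, adjusted p = 0.0892), and by -0.28 without that mouse (adjusted p = 0.395); without unexposed mouse 5 it passed at -0.70 (adjusted p = 0.0254).

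Around the members, 3 of 17 granule genes rose at day 34: Cst7 (cystatin F, a cathepsin inhibitor) by 1.2, Ctsc (cathepsin C, which activates granzymes) by 0.82 and Serpinb9, the mouse gene of a granzyme B inhibitor, by 0.43. Both Ctsc and Cst7 are also expressed by macrophages and other myeloid cells. Of 18 T cell markers 6 rose, led by Cd3e (1.24), Icos (1.07) and Cd6 (0.94), and of 16 NK cell markers 0 passed, with a median of 0. Of the 11 genes of the Ccl5 receptor list 4 rose: Cxcl9 by 3.64, Cxcl10 by 1.73, Cxcr3 by 1.09 and the Ccl5 receptor Ccr1 by 0.48. Of 11 type I interferon response genes 7 rose, among them Ifit1 by 0.72. Of 9 B cell markers 4 fell, led by Pax5 (-0.68) and Blk (-0.65). In the lists of other granule-bearing or admixed cells the mast cell protease Mcpt4 fell by 0.30. Hdc, the histamine-forming enzyme, rose by 0.30 and the thymus-list gene Ly6d fell by 0.91. Of 8 squamous epithelium and 10 skeletal muscle genes 0 passed, but their list medians were -0.97 and -1.18. Squamous arrays were unevenly spread, 4 among the 5 unexposed mice and 3 among the 10 exposed ones. None of these lists (mast cell and neutrophil proteases, mast cells, thymus, B cells, squamous epithelium and muscle) had a called gene in the other 12 comparisons. The log2 Gapdh ratio also differed in range at day 34: unexposed mice spanned 0.27 to 2.14, while the exposed group spanned -0.16 to 1.6. What part squamous arrays or RNA quality had in the list differences of that day was not tested.

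At day 41 no member passed beside 0.388% of all genes. Ccl5 read 137 to 365 (median 244) after exposure and 179 to 302 (median 209) without it, a difference of 0.04 (SE 0.28). Prf1 differed by -0.53 (SE 0.25, adjusted p = 0.631) and Gzmb by -0.34 (SE 0.20, adjusted p = 0.792). No member's effect of exposure differed between days 41 and 34 past the threshold (0.109% of genes did). Of the T cell list Cd6 rose by 0.79 and Ctla4 by 0.85, and 0 of 17 granule genes passed.

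**Figure D4:**
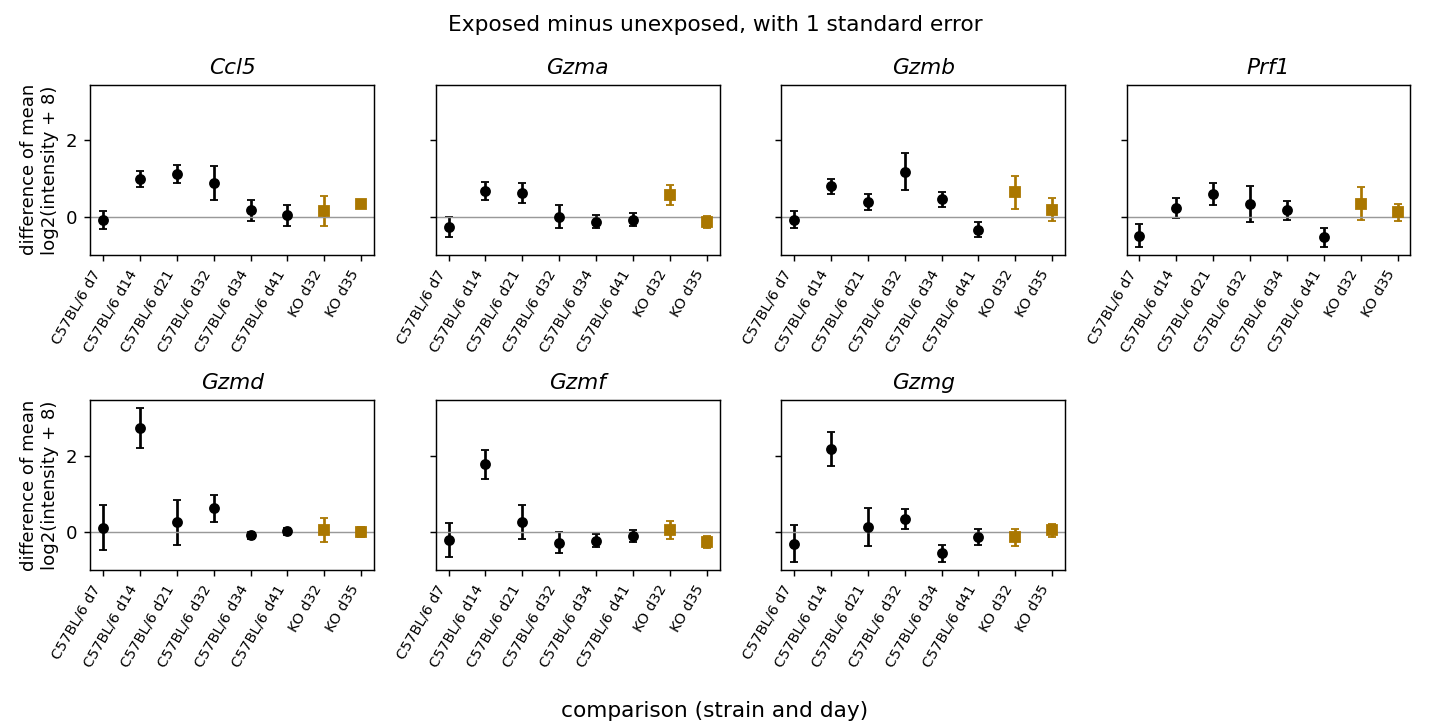
Exposed minus unexposed difference of mean log2(intensity + 8) for each member, with bars of 1 SE from limma. Circles are C57BL/6 and squares CD40L-KO mice, and the unexposed mice of the CD40L-KO day 35 comparison are labelled day 14. Gzmd, Gzmf and Gzmg are highest at day 14 (2.73, 1.77 and 2.18), Ccl5 at day 21 (1.12) and Gzmb at day 32 (1.18, SE 0.48).

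In CD40L-KO mice no member passed in any comparison, and granzymes D, F and G stayed low on all 20 arrays, with Gzmd at most 6.83, Gzmf at most 14.4 and Gzmg at most 20.2. No CD40L-KO mice exposed for 14 days were analysed here, so the day on which these granzymes were high in C57BL/6 mice has no counterpart. At day 32 Ccl5 read 277, 171 and 187 in exposed and 284, 109 and 207 in unexposed mice, a difference of 0.15 (SE 0.39, adjusted p = 0.898), and Gzma 103, 85.6 and 63.4 against 58.8, 43.2 and 57.9, a difference of 0.57 (SE 0.27, adjusted p = 0.378) with no overlap, as held for 13.6% of genes in that direction. In that comparison 0.0727% of genes passed. The exposure effects of the strains at day 32 differed by -0.74 to 0.57 over the members, none past the threshold (0.17% of genes passed).

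At day 35 Ccl5 read 202, 188, 184 and 160 in exposed CD40L-KO mice. The unexposed CD40L-KO mice set against them, which are labelled day 14, read 160, 127, 146, 163 and 130. An effect of exposure cannot be told apart from one of day in this comparison. All 4 exposed mice lay above the unexposed mean, and the difference was 0.33 (SE 0.11, adjusted p = 0.427 over all genes; exact permutation p = 0.0317, two-sided and unadjusted). By limma 0 of 8252 genes passed (0%), with 771 at an unadjusted p under 0.05. Against the effect in C57BL/6 mice at day 34 no member differed past the threshold, as 0.582% of genes did. At day 75 Ccl5 was 137, 183 and 202 in CD40L-KO and 213, 267 and 255 in C57BL/6 mice, both exposed, a difference of -0.49 (SE 0.35, adjusted p = 1.0). No member passed, where 0.327% of genes did; Ccl5 and Gzma lay below C57BL/6 without overlap, as 4.82% of genes, and Gzmd lay above it (3.04, 1.82 and 4.06 against 1.01, 1.74 and 1.13), as 7.96% of genes, at values near the floor. Between days 75 and 39 in exposed CD40L-KO mice the members differed by -0.29 to 0.09, none past the threshold, beside 3.42% of genes; the granule gene Ctsc rose by 0.95 and Lamp1, a lysosome membrane protein, fell by 0.50.

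The 19 groups come from several experiments, and a difference between experiments cannot be told apart from one between their days. Unexposed C57BL/6 mice had a mean log2 Ccl5 of 7.97, 7.76 and 7.85 at days 32, 34 and 41. At days 7, 14 and 21 it was 7.26, 7.21 and 7.07. Over the 19 groups, mean log2 Ccl5 ran from 8.86 ± 0.59 (SD, n = 3) in exposed C57BL/6 mice of day 32 through 8.20 ± 0.40 (SD, n = 8) at day 14 and 8.19 ± 0.26 (SD, n = 6) at day 21 down to 7.07 ± 0.42 (SD, n = 5) in the unexposed mice of day 21. Of the 18 steps between neighbours in that order, only the first exceeded the larger SD of the pair. Gzmd likewise had 1 such step of 18, from 6.04 ± 2.02 (SD, n = 8) at day 14 to 3.97 ± 0.70 (SD, n = 3) in the exposed mice of day 32, and the other 5 members had none. Gzmf (5.12 ± 1.52) and Gzmg (6.34 ± 1.65) were also highest in the exposed mice of day 14 (SD, n = 8), Gzma there too (6.69 ± 0.47), Gzmb at day 32 (6.96 ± 0.95, SD, n = 3) and Prf1 at day 21 (4.97 ± 0.42, SD, n = 6).

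Among the 4126 genes brighter than the median gene, the 3 most like each member over the 19 group means were ranked by Pearson's r, as a description with no test, since groups share experiments. For Gzmb they were Usp18 (0.89), Isg15 (0.88) and Irgm2 (0.84), and for Ccl5 H2-K2 (0.82), Selplg (0.82) and Rac2 (0.81). The mean of Gzmd, Gzmf and Gzmg was most like Isg20 (0.72), Alas2 (0.66) and Rsad2 (0.66), and rests on 1 high group. Gzma was most like Asap1 (0.73), Cd7 (0.72) and Xpnpep1 (0.71), and Prf1 like Flt4 (0.79), Bpgm (0.76) and Map3k3 (0.74).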

How the data were processed

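Total RNA of lung homogenates was labelled with biotin and hybridised to Affymetrix arrays, per the labels' protocols. The table deposited by the authors holds 1 linear intensity per probe set for 12487 probe sets and 95 arrays. How probes were summarised is not given in the sources read here; the mean of each array without 2% of values at each end was 100.06 to 100.08, so arrays had been scaled by the authors.

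Of the probe sets, 10854 had 1 gene symbol, 396 several and 1236 none, and 1 probe set with a missing value was left out. The brightest probe set represented each of 8252 genes as log2(intensity + 8). Comparisons within an experiment were fitted with lmFit and eBayes of limma 3.58.1 (R 4.3.3) on that experiment's groups, days 39 and 75 with day 32, and day 35 against day 34 on the 4 groups involved. Promoters were read from a RefSeq table (GRCm38.p6) and aligned with Biopython 1.88; tables used Python 3.11.15 and pandas 2.3.3. The fits were tested on simulated data.

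The members and the 11 gene lists were chosen with earlier results of these data known. The naming rule took the members, up to 3 called genes of a list (the 2 of lowest p where none was called) and 22 further genes. Alternatives were offsets of 2 and 32, a filter keeping the 4126 genes whose highest group mean was above the median of such means, quantile normalization, 1 fit of all groups, the mean of probe sets, each probe set alone, the replicate number as a block, the squamous score as a covariate, leaving out the 16 squamous arrays and each array in turn; the Gapdh ratio as a covariate was chosen after seeing the data. Replicates are separate mice per the labels.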

Additional observations from a re-analysis of the deposited data

Results flagged for a closer look

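Of 96 tests for a single array far from its group (8 probe sets, groups of 4 to 10, log2 scale), 17 stood out; chance alone gives about 4.8, and many of these values are close to the floor, where a small step is a large part of a narrow range.

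Unexposed mouse 1 of day 34 had Ccl5 at 719.1 beside 179.1 in the next mouse, Gzmg at 51.0 beside 17.8, and the second Gzmg probe set at 6.7 beside 1.8. In unexposed mouse 4 of that day Gzmb was 66.5 beside 36.7 and Gzmd 5.6 beside 2.5, and in exposed mouse 4 Gzmb was 31.3, below the next lowest 51.0. Exposed mouse 1 of day 21 had Gzmg at 38.1 beside 11.5, and exposed mouse 6 of that day the lowest Prf1, 9.9, below 22.7.

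Further single arrays were far from their groups at low values. At day 7, exposed mouse 7 had Gzmb at 22.0, exposed mouse 8 Gzmd at 8.6 and unexposed mouse 3 Gzmf at 1.8. Gzmf was 7.2 in exposed mouse 9 and 6.9 in unexposed mouse 4 of day 41, and 7.5 in unexposed mouse 3 of day 21. Gzmg was 25.7 in unexposed mouse 3 of day 41. The second Gzmg probe set was 4.5 in unexposed C57BL/6 mouse 1 of day 14 and 6.5 in exposed CD40L-KO mouse 3 of day 35.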

How the results depend on the processing

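The number of members past the threshold was recomputed in 13 comparisons under 11 other settings, and 138 of these 143 counts stayed within 1.5 times the reported one. At day 14 the count fell from 4 to 1 without dim genes (only Gzma, Gzmb and Ccl5, 3 members, are kept by their highest group mean, and Ccl5 passed) and to 1 without squamous arrays (Gzmd). At day 21 it rose from 0 to 1 with an offset of 32 and to 1 without dim genes, in both cases Ccl5. At day 32 it rose to 1 in 1 fit of all 19 groups (Gzmb). Apart from the dim-gene filter, which removes genes from the test, the cause was not tested. With each array left out in turn the count ran from 1 to 5 at day 14, from 0 to 1 at days 21, 32 and 34 in C57BL/6 mice, and was 0 in the other 9 comparisons. At day 14 it was 2 without exposed mouse 8, unexposed mouse 2 or unexposed mouse 6 (Gzmd and Gzmg each time) and 1 without unexposed mouse 4 (Gzmd). At day 34 Gzmg passed without exposed mouse 2 or unexposed mouse 5. Since the day 14 contrast chose the members, its counts are given to show what the settings change, not as support. With the replicate number as a block, 3 members passed at day 14 (Gzmd, Gzma and Ccl5) and 0 elsewhere. Same-numbered arrays of exposed and unexposed groups correlated at -0.422 to 0.507, with 7 of 34 pairs over 0.1. Arrays of different numbers were not compared, so these values cannot show whether the numbers pair the mice. Dim genes limit the precision: Gzmd was brighter than 8.22% of genes and Gzmf than 8.63%.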
